A study of Mus musculus with 4 samples.

Results

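Simple epithelial keratins and the desmosome genes they attach to were followed at day 14 of reprogramming of mouse embryonic fibroblasts (MEFs) toward hepatocytes. They are the 10 genes Krt8, Krt7, Krt18, Krt19, Krt20, Krt23, Dsg2, Pkp2, Dsp and Ppl, chosen by name out of 55397 genes in the table of normalized counts. All 4 libraries came from primary MEFs of Prox1 fl/fl C57BL/6J embryos harvested at E13.5, so the controls carried the floxed alleles too, and all received lentivirus encoding 4in1, the hepatocyte reprogramming factors. Of these, 2 libraries are labelled Prox1 KO, written KO-labelled from here on (4in1 with the Cre recombinase virus FUW-GFP-Cre) and 2 are controls (4in1 with the non-functional delta Cre virus FUW-GFP-dCre). Every culture was kept for 14 days, at the end in hepatocyte culture medium, and no library had Cre without floxed alleles, so the loss of Prox1 and the activity of Cre itself cannot be told apart. RNA was read in bulk from whole cultures, in which fewer cells of a type and less RNA per cell cannot be told apart.

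Keratins are the intermediate filament proteins of epithelia, and a filament is built from pairs of a type I and a type II keratin. Simple, single-layered epithelia such as liver, bile duct and gut use KRT8 (type II) with KRT18 (type I), joined by KRT19 and KRT7 in ducts. In epithelial sheets these filaments end at desmosomes, junctions in which cadherins (desmogleins and desmocollins) bind the neighboring cell, armadillo proteins (plakoglobin and plakophilins) sit beneath the membrane, and plakins such as desmoplakin tie the plaque to the keratin filaments. Hepatocytes hold KRT8 and KRT18, and fibroblasts hold mainly vimentin.

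The target of the recombinase showed no fall under Cre. Prox1 had 72.7 and 61.6 normalized counts there and 60.6 and 25.5 in the controls (log2 fold change 0.75, limma adjusted p = 0.0936), from 24 to 70 reads per library. The counts are per gene and do not show whether the floxed exons themselves were read. Libraries held 42469031 to 48524008 reads on genes. Among the members Krt23 had the fewest reads, 26 to 56 per library, followed by Krt20 with 183 to 298 and Dsg2 with 225 to 577. For Krt20 the counting error of the log2 difference within a single pair was 0.14 or 0.13. Limma's standard error of 0.15 is for the mean of the 2 pairs, so these values are not directly comparable.

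Krt8 and Krt18 are neighbors on mouse chromosome 15, on opposite strands and 23697 bases apart, and Krt7 lies a further 566384 bases away. Krt18, Krt8 and Dsp stand for the largest falls and for a rise among the members, and the 300 bases around their RefSeq starts (250 before and 50 after, GRCm38.p6, each on the strand of its gene) are shown here. They span chr15:102004293-102004592 on the minus strand for Krt8, chr15:102027966-102028265 on the plus strand for Krt18 and chr13:38151044-38151343 on the plus strand for Dsp. Capitals mark matches on either strand to 4 short motifs. They are TATAAA, known from core promoters, GGGCGG, known as the box of SP factors, CACCTG, which is 1 form of the E-box, and TGANTCA, known from AP-1 sites.
Krt8: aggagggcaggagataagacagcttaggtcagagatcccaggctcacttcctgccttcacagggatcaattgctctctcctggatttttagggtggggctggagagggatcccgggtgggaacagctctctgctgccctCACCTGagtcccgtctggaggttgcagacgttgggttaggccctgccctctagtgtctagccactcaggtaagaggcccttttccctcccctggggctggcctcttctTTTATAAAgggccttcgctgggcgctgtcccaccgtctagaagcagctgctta
Krt18: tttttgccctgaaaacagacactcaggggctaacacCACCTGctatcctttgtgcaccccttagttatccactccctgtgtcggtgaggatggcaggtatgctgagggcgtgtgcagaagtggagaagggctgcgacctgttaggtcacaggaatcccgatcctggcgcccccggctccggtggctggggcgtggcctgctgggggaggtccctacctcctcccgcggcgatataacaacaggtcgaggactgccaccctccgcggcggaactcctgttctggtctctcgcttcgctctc
Dsp: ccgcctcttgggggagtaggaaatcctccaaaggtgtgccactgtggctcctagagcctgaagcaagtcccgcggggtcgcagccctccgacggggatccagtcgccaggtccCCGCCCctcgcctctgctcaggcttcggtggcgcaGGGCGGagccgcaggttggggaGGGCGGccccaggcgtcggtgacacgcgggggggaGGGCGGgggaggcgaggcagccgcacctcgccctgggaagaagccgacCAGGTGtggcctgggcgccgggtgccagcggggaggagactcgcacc

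The Krt8 window held CACCTG once and had 58.0% GC and 6 CpG dinucleotides. It also held TATAAA on both strands, as overlapping matches whose first bases lay at -3 and -1, across the RefSeq start. In GENCODE vM21 the Krt8 gene begins at 102004482, inside this window and before the RefSeq start. These positions therefore hold for the RefSeq start only. The Krt18 window held CACCTG alone, with 61.3% GC and 17 CpG. The Dsp window held GGGCGG 4 times and CACCTG once, with 73.0% GC and 27 CpG. RefSeq windows were at hand for 6 members, the others being Krt7, Krt20 and Krt23. CACCTG was present in 5 of these 6, all but Krt20, against 20.2% of 32851 mouse promoter windows of the same length. GGGCGG was present in Dsp and Krt7 (35.7% of all windows), TATAAA in Krt8 and Krt20 (13.6%), and TGANTCA in 0 of the 6 (7.81%). The TATAAA of Krt20 began at -29, unlike those of Krt8. These matches describe the letters of the windows, and whether any protein binds there was not examined.

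All 10 members passed the filter (10 or more normalized counts on average), and 6 of them passed an adjusted p of 0.05 in limma with the replicate number as a block. Krt8, Krt18, Krt19 and Dsg2 fell in the KO-labelled libraries and Dsp and Ppl rose. Among all 15809 genes tested, 6.29% were called lower and 5.09% higher. The median log2 fold change was -0.32 over the 10 members and -0.0022 over all genes tested. Of the 6 keratins 3 were called lower, 0 were called higher and 3 did not pass, with a median of -0.60, and the 4 desmosome and plakin members were divided into 1 lower, 2 higher and 1 not called, with a median of 0.14.

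The 2 groups did not overlap for 5 members that were lower (the 4 called ones and Krt23) and 2 that were higher, against 22.6% of all genes lower without overlap and 21.8% higher. The same 6 members were called on recovered reads by edgeR (6.48% of genes lower, 4.9% higher) and DESeq2 (2.07% lower, 1.76% higher), each with the block. Without the block 0 members passed in limma, with 6 at an unadjusted p under 0.05. Limma's calls thus rest on comparing libraries within a replicate number. Of the fits added after seeing the data, edgeR without the block called 0 members. DESeq2 without it called 4 (Krt18, Krt19, Dsg2 and Ppl, not Krt8 or Dsp), among 160 genes in all. A group of 2 libraries leaves 1 residual degree of freedom per gene, and limma's standard errors therefore draw mostly on the spread of all genes.

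**Figure D1:**
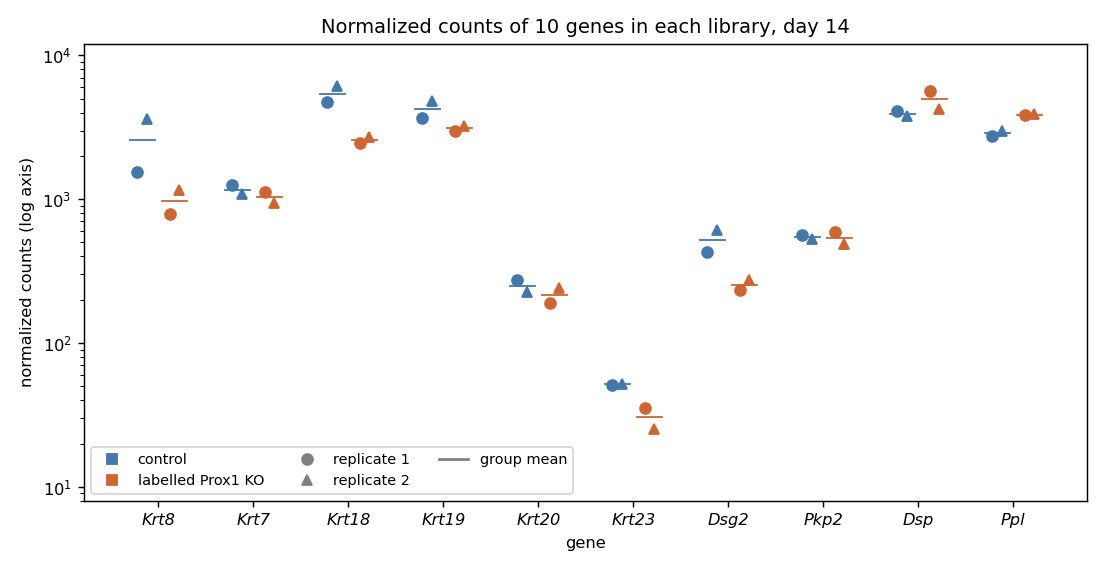
Normalized counts (log axis) of the 10 members in each library, with controls in blue, KO-labelled libraries in orange, circles for replicate 1, triangles for replicate 2 and a line for each group mean. Krt8, Krt18, Krt19, Krt23 and Dsg2 sit lower in both KO-labelled libraries than in either control, Dsp and Ppl sit higher, and Krt7, Krt20 and Pkp2 overlap.

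Among the type II keratins, Krt8 (chromosome 15, 101996698 to 102004482, minus strand), the main type II keratin of simple epithelia, fell by the largest factor of the 10 members. It had 786 and 1155 normalized counts in the KO-labelled libraries and 1545 and 3584 in the controls. The group means were 971 ± 261 and 2565 ± 1442 (SD, n = 2), a log2 fold change of -1.30 ± 0.10 (SE, limma adjusted p = 1.11e-06), or 0.405 of the control level. Both KO-labelled libraries were below both controls, but the controls themselves stood 2.32-fold apart, with replicate 2 higher. Within replicate 1 the log2 difference was -0.97 and within replicate 2 it was -1.63, and this gap of 0.66 between the pairs exceeds the standard error that limma gave. Of the Krt8 transcript, 17.0% of 100-base windows also occur in its pseudogene Krt8-ps, which had 1 to 3 reads per library, or in the antisense gene Gm36026, which was not analysed here.

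Krt7 (chromosome 15, 101411043 to 101430313, plus strand), a type II keratin of ducts and other glandular epithelia, had 1131 and 938 normalized counts in the KO-labelled libraries and 1248 and 1086 in the controls. The groups overlapped, and the log2 fold change of -0.18 (95% interval -0.31 to -0.04) did not pass the adjustment (limma adjusted p = 0.0876). Both pairs were negative, at -0.14 and -0.21. The 95% interval of Krt8, -1.52 to -1.09, did not touch that of Krt7, and the difference between these 2 changes was not tested. Exons of Krt7 overlap the antisense gene Gm671, not analysed here.

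Among the type I keratins, Krt18 (chromosome 15, 102028180 to 102032027, plus strand), the usual partner of Krt8, had 2470 and 2702 normalized counts in the KO-labelled libraries and 4708 and 6138 in the controls. Its 4 values fell into 2 clear levels with replicate 2 the higher of each group. The log2 fold change was -1.06 ± 0.05 (SE, limma adjusted p = 6.28e-08), with -0.93 in replicate 1 and -1.18 in replicate 2.

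Krt19 (chromosome 11, 100140810 to 100148665, minus strand), the type I keratin of bile duct cells and hepatic progenitors, fell by a smaller factor. It had 2976 and 3242 normalized counts in the KO-labelled libraries and 3665 and 4794 in the controls. The groups did not overlap, and the log2 fold change was -0.43 ± 0.06 (SE, limma adjusted p = 0.000119), or 0.741 of the control level. The interval of -0.55 to -0.31 lay apart from that of Krt18, -1.17 to -0.94, and this difference was not tested either.

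Krt23 and Krt20 lie 39823 bases apart on chromosome 11, 647672 bases from Krt19 at the nearer end. Krt23 (99477974 to 99493137, minus strand), a type I keratin found in several glandular epithelia, was the least abundant member, with 35.3 and 25.4 normalized counts in the KO-labelled libraries and 51.4 and 52.2 in the controls. The groups did not overlap and the pairs were -0.53 and -1.01, but the log2 fold change of -0.77 (95% interval -1.36 to -0.18) had a limma adjusted p of 0.0905. Krt20 (99428403 to 99438150, minus strand), a keratin of intestinal epithelium, had 190 and 242 normalized counts in the KO-labelled libraries and 274 and 227 in the controls. Its pairs went opposite ways, -0.52 and 0.10, and the log2 fold change of -0.21 (95% interval -0.52 to 0.10) did not pass (limma adjusted p = 0.416).

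The order of the keratins by level, in normalized counts per kilobase of exon, was Krt18, Krt19, Krt8, Krt7, Krt20 and Krt23 in both group means. Krt18 and Krt19 stood at 3774 and 2280 in the controls and at 1800 and 1676 in the KO-labelled libraries, and in the latter their libraries overlapped. Divided by the longest transcript instead, Krt19 stood above Krt18 in both KO-labelled libraries, at 1888 and 2057 against 1719 and 1880, so their order there depends on the length used. Krt8 went from 1310 to 496, Krt7 from 166 to 147, Krt20 from 130 to 112 and Krt23 from 33.1 to 19.4. Apart from Krt18 and Krt19 in the KO-labelled libraries, no neighbors in this order overlapped within a group.

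**Figure D2:**
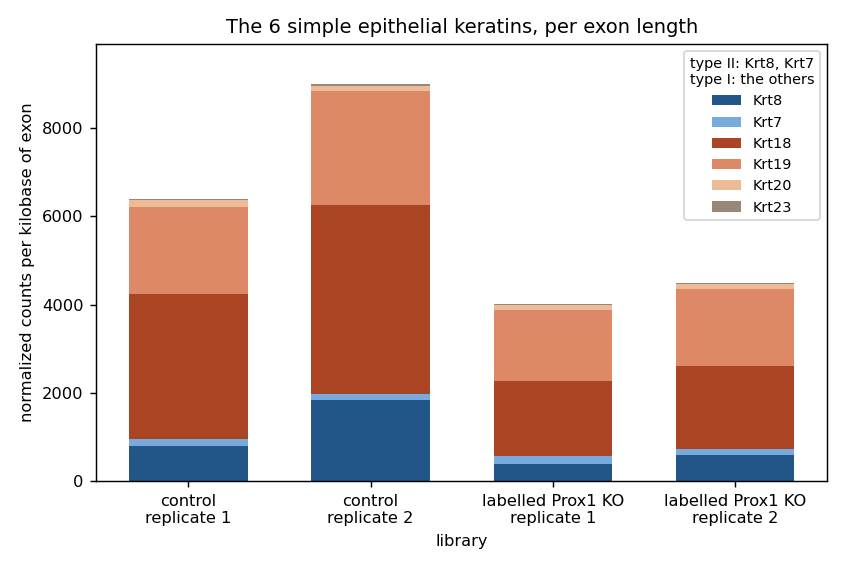
Normalized counts per kilobase of exon of the 6 simple epithelial keratins, stacked by gene in each of the 4 libraries, with type II keratins in blue and type I keratins in red, orange and brown. The stacks reach 6393 and 8991 in the controls and 4006 and 4493 in the KO-labelled libraries.

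Summed over the 6 keratins, the signal per kilobase was 4006 and 4493 in the KO-labelled libraries and 6393 and 8991 in the controls. Type I keratins made up 86.0% and 83.9% of that sum in the former and 84.9% and 77.9% in the latter, so the groups overlapped in this balance and control replicate 2 stood lowest. The ratio of Krt18 to Krt8 per kilobase was 4.28 and 3.19 in the KO-labelled libraries and 4.15 and 2.33 in the controls, so the groups overlapped here too, and replicate 2 was lower in each. Within the sum, Krt18 took 42.9% and 41.8% in the KO-labelled libraries and 51.3% and 47.5% in the controls. Krt19 took 40.0% and 38.9% against 30.9% and 28.7%. The shift from Krt18 toward Krt19 was present in both pairs and was not tested. With 2 libraries a group, and the pairs ignored, the smallest two-sided p of an exact permutation test is 0.333.

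Among the desmosome members, Dsg2 (chromosome 18, 20558074 to 20604521, plus strand), the desmoglein of simple epithelia, fell by about the same factor as Krt18. It had 234 and 275 normalized counts in the KO-labelled libraries and 428 and 614 in the controls, with no overlap. The means were 254 ± 28.9 and 521 ± 132 (SD, n = 2), a log2 fold change of -1.01 ± 0.11 (SE, limma adjusted p = 1.77e-05), and the pairs were -0.87 and -1.16. The gene Gm16090, antisense to a part of Dsg2, had 0 reads in all 4 libraries.

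Over the 4 libraries, Dsg2 had nearly the same profile as Krt18. By Euclidean distance between log2(normalized counts + 1) profiles centered on each gene's mean, it ranked 2 of 11519 other protein-coding genes whose normalized counts averaged 100 or more, at a distance of 0.129. Other genes among the 5 nearest were Tmprss2 at rank 1 (a membrane serine protease, 0.116), Kif23 (a kinesin of cytokinesis, 0.161) and Myo5b (a myosin of apical vesicle transport, 0.162). Krt8 ranked 315 and Krt19 ranked 200, Krt20 and Krt7 ranked 1970 and 2753, and Pkp2 ranked 6461. Dsp and Ppl were near the far end, at 11268 and 11320. These ranks describe 4 libraries that share the same contrast and carry no test.

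Pkp2 (chromosome 16, 16213318 to 16272712, plus strand), the plakophilin of simple epithelia and heart that links desmosomal cadherins to desmoplakin, had 587 and 488 normalized counts in the KO-labelled libraries and 566 and 525 in the controls. The groups overlapped, with a log2 fold change of -0.03 (limma adjusted p = 0.891). Its 95% interval of -0.21 to 0.16 left room for a small change in either direction and did not reach the size of the change in Dsg2.

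Dsp (chromosome 13, 38151294 to 38198577, plus strand) encodes desmoplakin, the plaque protein that anchors keratin filaments. It had 5634 and 4271 normalized counts in the KO-labelled libraries and 4104 and 3781 in the controls. The means were 4953 ± 964 and 3943 ± 229 (SD, n = 2), and the log2 fold change was 0.32 ± 0.06 (SE, limma adjusted p = 0.00162). Replicate 1 of the KO-labelled libraries stood well above the other 3, and replicate 2 exceeded the higher control by less than the 2 controls differed. The pairs gave 0.46 and 0.18.

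Ppl (chromosome 16, 5086291 to 5132421, minus strand) encodes periplakin, a plakin that binds keratin and vimentin filaments and belongs to the cornified envelope of skin. It had 3860 and 3889 normalized counts in the KO-labelled libraries and 2757 and 2988 in the controls. The groups stood clear of each other by far more than the libraries within them differed, and the log2 fold change was 0.43 ± 0.05 (SE, limma adjusted p = 2.33e-05), with pairs of 0.49 and 0.38.

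**Figure D3:**
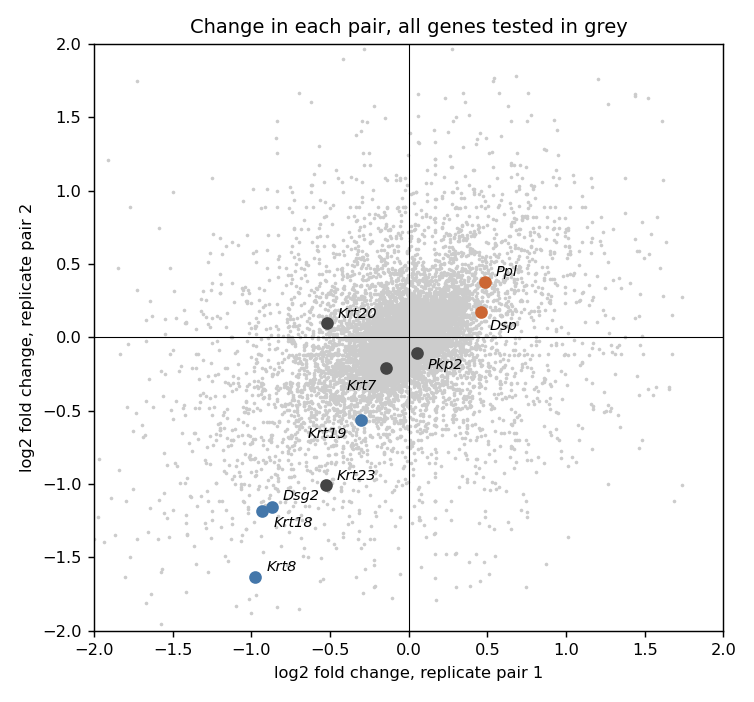
Log2 fold change of the KO-labelled libraries against controls within replicate 1 (x axis) and within replicate 2 (y axis), with all genes tested in grey and the members as large points, blue when called lower, orange when called higher and dark grey when not called. Krt8, Krt18 and Dsg2 lie far to the lower left, Dsp and Ppl lie to the upper right, and Krt20 and Pkp2 have opposite signs in the 2 pairs. The axes end at 2 on either side and leave out 58 genes.

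Of 22 other listed genes of the desmosome and of plakin and hemidesmosome plaques 16 were tested, 7 rose, 1 fell and 8 did not pass, where 5.09% of all genes were called higher and 6.29% lower. The median log2 fold change of the 16 was 0.15, against -0.0022 over all genes tested. The untested ones were the desmogleins Dsg1a, Dsg1b, Dsg1c, Dsg3 and Dsg4 and the desmocollin Dsc1 of stratified epithelia, with at most 6.39 normalized counts in any library. Dsg2 was thus the only desmoglein gene tested.

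Among the cadherins, Dsc3, a desmocollin of basal stratified epithelium, rose, with 187 and 145 normalized counts in the KO-labelled libraries and 121 and 105 in the controls (log2 fold change 0.54, limma adjusted p = 0.0382). Dsc2, the desmocollin of simple epithelia, had 150 and 160 against 142 and 161 normalized counts, a log2 fold change of 0.03 with a 95% interval of -0.28 to 0.35. In limma Dsg2 thus fell, Dsc3 rose and Dsc2 did not pass. DESeq2 with the block did not call Dsc3, and the differences between these genes were not tested.

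Jup, encoding plakoglobin, was higher at 7911 and 6783 against 6138 and 6460 normalized counts (log2 fold change 0.22, limma adjusted p = 0.0181), and most of the difference lay in replicate 1, with pairs of 0.37 and 0.07. Perp, a tetraspan protein of desmosomes, had 13553 and 10817 normalized counts in the KO-labelled libraries and 10912 and 9040 in the controls, so the groups overlapped, and rose within both pairs (log2 fold change 0.29, limma adjusted p = 0.000242). The plakophilins Pkp1, Pkp3 and Pkp4 did not pass, with log2 fold changes of 0.83, -0.03 and 0.06.

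Evpl, encoding envoplakin, which pairs with periplakin in the cornified envelope, had the largest log2 fold change of the listed genes of these plaques. It had 144 and 109 normalized counts in the KO-labelled libraries and 61.5 and 69.2 in the controls (log2 fold change 0.94, limma adjusted p = 0.00641). Plec, encoding plectin, which cross-links intermediate filaments, had 54559 and 49938 against 42410 and 43389 (log2 fold change 0.28, limma adjusted p = 0.000811), and its exons overlap those of Parp10 on the same strand. Macf1, a plakin that binds actin and microtubules, rose by 0.18 (limma adjusted p = 0.00741), but was not called after a correction for GC content and length. Dst, another abundant plakin gene, had a log2 fold change of 0.12 (limma adjusted p = 0.0712). Of the 7 plakin family genes tested, members included, Dsp, Ppl, Evpl, Plec and Macf1 rose in limma with the block. Dst and Eppk1 (log2 fold change -0.31, limma adjusted p = 0.259) did not pass. Among all genes tested, 5.09% were called higher and 6.29% lower. With DESeq2 and the block on recovered reads 4 genes of the list were called (Perp, Plec, Macf1 and Itga6), all higher.

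The 2 chains of the hemidesmosome integrin went opposite ways. Itga6 rose from 2770 and 2325 normalized counts in the controls to 3787 and 3021 (log2 fold change 0.41, limma adjusted p = 3.63e-05), and Itgb4 fell from 564 and 1025 to 442 and 499 (log2 fold change -0.69, limma adjusted p = 0.00125), with control replicate 2 highest, as for Krt8.

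**Figure D4:**
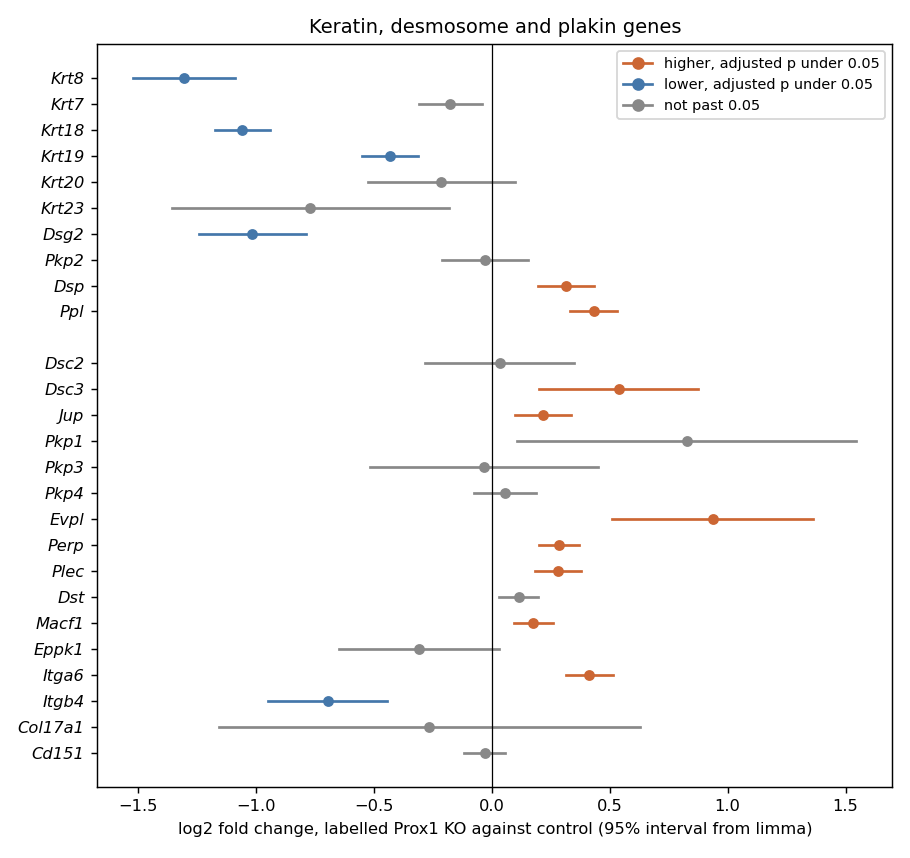
Log2 fold change with its 95% interval from limma for the 10 members (upper block) and the 16 tested genes of the desmosome, plakin and hemidesmosome list (lower block), orange when called higher, blue when called lower and grey otherwise. Krt8, Krt18 and Dsg2 lie near or below -1, Macf1, Plec, Dsp, Ppl and Evpl lie between 0.18 and 0.94, and the genes counted lowest (Krt23, Pkp1, Col17a1) have the widest intervals.

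Most keratins of stratified epithelia had few counts or none. Of 22 other keratin genes only Krt10, Krt13 and Krt80 reached the filter, 0 were called by limma and 0 had an unadjusted p under 0.05. Krt80, the most abundant of them, had 400 and 346 normalized counts in the KO-labelled libraries and 317 and 345 in the controls (limma adjusted p = 0.381). Krt5 had at most 7.27 and Krt14 at most 2.08 normalized counts in any library, and Krt9, Krt12, Krt4 and Krt6b were listed at 0 in all.

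Of 16 listed intermediate filament genes of other cell types and of the nucleus, 11 were tested. Of these, 1 rose and 0 fell, beside 5.09% of all genes called higher and 6.29% lower. Des, the muscle filament desmin, rose from 1125 and 1311 normalized counts in the controls to 1553 and 1560 (log2 fold change 0.36, limma adjusted p = 0.00167), a call that DESeq2 with the block did not make. Vim, encoding vimentin, the most abundant filament gene, had 222861 and 195683 normalized counts against 200628 and 187369 in the controls, and Lmna had 40271 and 37651 against 36878 and 36679. Neither passed (limma adjusted p = 0.218 and 0.248), although Vim was called higher after quantile normalization, nor did Nes, a filament gene of progenitors (limma adjusted p = 0.484).

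Markers of several cell types moved beside these results, and their part in them was not tested. Their calls are from limma with the block, where 6.29% of all genes tested were lower and 5.09% higher. Without the block limma called 0 genes in all. Of 8 hepatocyte markers 7 were tested and 5 fell (Afp, Ttr, Apoa1, Apob and Serpina1a), with summed normalized counts of 18755 and 20462 in the KO-labelled libraries and 24626 and 27455 in the controls, while Tat had at most 2.08 normalized counts and Alb, among the most abundant of the list, did not pass. All 4 proliferation genes fell (Mki67, Top2a, Ccnb1 and Cdk1), with sums of 1137 and 1475 against 1886 and 2146. For Ccnb1, 28.6% of such windows also occur in other genes. Of 7 bile duct markers 2 of the 6 tested fell, Krt19 itself and Epcam, an epithelial adhesion molecule with 56.1 and 67.4 against 151 and 227 normalized counts (log2 fold change -1.58, limma adjusted p = 3.63e-05). Spp1, the most abundant bile duct marker, and Krt7 did not pass. Both tested markers of intestinal epithelium fell, Vil1, encoding the microvillus protein villin (log2 fold change -0.82), and Lgr5 (-0.97), with Cdx2 at 0 in all libraries.

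The fibroblast list had sums of 1253960 and 1512360 in the KO-labelled libraries and 1254040 and 1583490 in the controls, far above those of the keratins in either group. Within it 3 of 8 fell (Col3a1, Pdgfra and Dcn), while Col1a1, Col1a2 and Fn1 did not pass. For this list and those below, the share of all genes was 6.29% lower and 5.09% higher. Of 7 keratinocyte markers 3 were tested and Ivl rose, encoding involucrin, a cornified envelope protein like envoplakin (1542 and 1109 against 1111 and 866 normalized counts, log2 fold change 0.41, limma adjusted p = 0.000512), with overlap between the groups, while Trp63 and Krt10 did not pass. Of the mesothelial list Upk1b rose (0.82) and Msln fell (-0.37) while Gpm6a did not pass, of the endothelial list Kdr rose (0.67) and Tek did not pass, with Pecam1 and Cdh5 at most at 12.5 and 8.80 normalized counts, and of the immune list only Cd68 was tested and did not pass, with Adgre1 and Cd3e at 0.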

How the data were processed

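Libraries were made from total RNA with the dUTP protocol and sequenced as 2x100 bp paired ends. The authors mapped reads to mm10 with STAR and deposited counts divided by DESeq2 size factors, a signal per gene. The counting tool and annotation release are not given in the sources used here. Size factors (0.939 to 1.09) followed from the spacing of the low values, and at these factors 100% of values were whole reads within 0.001. No molecular identifiers were used, so the counting errors, which take each read as a separate molecule, do not cover amplification. Intervals and SDs come from differences between libraries, in which amplification and other sources cannot be told apart. A table of the authors' own comparison (fold changes and p-values) was not used.

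Genes averaging 10 or more normalized counts entered a limma 3.58.1 fit (R 4.3.3, intensity trend) of log2(normalized counts + 1) with the replicate number as a block and Benjamini-Hochberg adjustment over all genes tested, at 0.05. Fold changes are on that scale and understate changes of genes with low counts. Groups and replicate numbers came from the labels. The block follows the study's methods, where the covariate is the primary MEF line, but whether the numbers stand for lines is not stated, and p-values may measure technical spread only. Alternatives were edgeR 4.0.16 and DESeq2 1.42.0 on recovered reads, no block, pseudocounts of 0.1 and 10, no filter or a mean of at least 50, quantile normalization, a lowess correction for GC content and length, and leaving out each replicate number. The scripts were tested on simulated data. Libraries of a group differed beyond sampling noise in 33.6% and 34.6% of genes, so none repeated the counts of another. The comparison is with counting noise alone, so it cannot tell separate cultures from repeat libraries of 1 culture.

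The members and gene lists were chosen with earlier results of these data known. Named were all members, Prox1, the called genes and the 3 with the highest means of each other list, and the 5 protein-coding genes nearest Krt18, of which 1 is not reported here. Other listed genes, such as Dsc2, Dst, Eppk1, the other plakophilins, Krt5, Krt14, Tat and genes under the filter or at 0, were named after their values were seen, to account for the lists. Coordinates and exon lengths come from GENCODE vM21 on GRCm38, which holds 55137 of the gene identifiers, and promoters from RefSeq (GRCm38.p6).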

Additional observations from a re-analysis of the deposited data

How the results depend on the processing

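Without the replicate block limma called 0 members, 0 other desmosome and plakin genes, 0 other intermediate filament genes and 0 genes in all (1783 at an unadjusted p under 0.05), and edgeR without the block, chosen after seeing the data, also called 0 of each (1767 unadjusted). DESeq2 without the block, also added later, called 4 members (Krt18, Krt19, Dsg2 and Ppl, with Krt8 at an adjusted p of 0.519), 1 other desmosome and plakin gene, 0 other intermediate filament genes and 160 genes in all. With 2 pairs, the deviations of same-numbered libraries from their group means correlated at 0.402 over genes, as a description.

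DESeq2 with the replicate block called the same 6 members, 4 other desmosome and plakin genes, 0 other intermediate filament genes and 483 genes in all (222 higher and 261 lower), against 1798 in limma. The median log2 fold change of the members, -0.32, was -0.21 with a mean of at least 50 (which drops Krt23), -0.30 after quantile normalization and -0.29 after the GC and length correction, and -0.41 to -0.39 with 1 replicate number left out, which leaves 1 pair and no test. Quantile normalization called 2 other intermediate filament genes and turned Pkp2 to 0.0016. Krt7, Krt20, Krt23 and Pkp2 were called in no setting with a test. The cause of these changes was not tested. Depth was lowest, among the members and Prox1, for Krt23 (26 to 56 reads) and Prox1 (24 to 70).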
